A study of Mus musculus with 40 samples.

Results

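Type I interferon-stimulated genes are a set of 46 genes that interferon alpha and beta switch on in most cell types, chosen by name for what they are known to do, at a time when earlier results of these data were known. Probes named for 45 of the 46 were on the array, 65 probes in all, among 21892 genes measured. Ifi44 is not analysed here. The genes were measured in spleen B cells, isolated by negative selection, of C57BL/6 mice of 12 weeks, in Dock10 knockout (KO) and wild-type (WT) animals. Dock10 is an exchange factor that activates the small GTPases Rac and Cdc42, and how its allele was built is not given in the sources used here. KO_Pre and WT_Pre are cells before culture (n = 10 mice each). KO_Ctrl and WT_Ctrl are cells that the labels number as mice 6 to 10, cultured for 18 h with nothing added (n = 5 each), and KO_IL4 and WT_IL4 are cells of the same mice cultured for 18 h with interleukin 4 (IL-4) at 10 ng/ml (n = 5 each). Each sample was hybridised with 2 dyes against 1 pool, described as KO_Pre RNA from mice 6 to 10. Every value is thus a log2 ratio to that pool, where 0 equals the pool and a difference of 1 is 2-fold. Such ratios carry no absolute level, and no gene's ratio was set against another's as a level.

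Interferons alpha and beta bind the receptor of Ifnar1 and Ifnar2, which through the kinases Jak1 and Tyk2 activates Stat2. With Irf9 it is part of a factor that binds the interferon-stimulated response element (ISRE) in promoters of the genes described here. The products detect foreign RNA and DNA, block steps of virus replication, modify proteins with ISG15 or ADP-ribose, and both amplify and restrain the response. B cells respond to type I interferon through this receptor, and resting spleen cells have a low tonic level of the response.

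Promoter windows of 300 bases, from 250 before to 50 after a transcription start, were taken from RefSeq (GRCm38.p6) and found for 34 of the 45 measured genes. The core of the ISRE, searched on either strand as GAAA, any 2 bases and GAAA again, was in the windows of 17 of the 34 genes (50%), against 3.99% of the 27025 genes with such a window. The site of STAT dimers, TTCNNNGAA, was in those of 8 of the 34 (23.5%), against 9.55% of all. Both were present in 4 genes, and in 2 windows they overlap. A match is a description of the letters and not a shown binding site. The windows of 5 genes are printed 5′ to 3′ on the gene's strand, with the ISRE core in capitals, because they span what the values below show: Isg15, Ifit1 and Rsad2 with the element and lower in KO cells after culture, Cmpk2 without it and also lower, and Slfn5 with it and not called.
Isg15, chr4:156200769-156201068, minus strand, 3 matches that overlap in 1 run: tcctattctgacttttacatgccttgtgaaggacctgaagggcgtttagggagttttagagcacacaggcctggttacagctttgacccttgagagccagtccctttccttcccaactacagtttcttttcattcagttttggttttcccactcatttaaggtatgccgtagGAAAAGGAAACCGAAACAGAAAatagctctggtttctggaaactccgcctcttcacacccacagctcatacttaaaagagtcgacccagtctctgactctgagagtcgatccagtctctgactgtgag
Ifit1, chr19:34640639-34640938, plus strand, 2 matches: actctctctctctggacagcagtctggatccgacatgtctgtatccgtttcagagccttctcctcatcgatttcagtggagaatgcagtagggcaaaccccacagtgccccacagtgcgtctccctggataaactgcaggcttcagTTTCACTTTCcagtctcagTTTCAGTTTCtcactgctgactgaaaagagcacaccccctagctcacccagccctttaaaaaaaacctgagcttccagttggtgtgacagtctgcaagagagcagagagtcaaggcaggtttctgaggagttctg
Rsad2, chr12:26456403-26456702, minus strand, 1 match: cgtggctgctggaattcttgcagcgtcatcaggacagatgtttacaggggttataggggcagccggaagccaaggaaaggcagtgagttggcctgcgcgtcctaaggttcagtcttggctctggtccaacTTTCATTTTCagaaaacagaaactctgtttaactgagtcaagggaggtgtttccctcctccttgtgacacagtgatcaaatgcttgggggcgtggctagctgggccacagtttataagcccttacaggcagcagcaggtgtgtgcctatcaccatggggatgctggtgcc
Cmpk2, chr12:26468965-26469264, plus strand, 0 matches: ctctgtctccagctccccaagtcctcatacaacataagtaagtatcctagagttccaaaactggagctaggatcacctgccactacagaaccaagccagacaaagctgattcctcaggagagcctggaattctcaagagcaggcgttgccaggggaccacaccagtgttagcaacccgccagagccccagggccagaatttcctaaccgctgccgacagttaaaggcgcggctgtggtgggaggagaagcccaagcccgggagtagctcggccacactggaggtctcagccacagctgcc
Slfn5, chr11:82951852-82952151, plus strand, 1 match: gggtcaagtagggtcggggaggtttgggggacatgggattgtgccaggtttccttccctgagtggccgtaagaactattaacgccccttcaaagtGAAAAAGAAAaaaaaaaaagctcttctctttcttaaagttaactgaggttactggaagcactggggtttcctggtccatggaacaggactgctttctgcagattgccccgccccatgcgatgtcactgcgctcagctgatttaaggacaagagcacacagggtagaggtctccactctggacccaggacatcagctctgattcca
Of the 17 genes with the core, 15 were lower in KO_Ctrl than in WT_Ctrl, with a median difference of -1.16. Of the 17 without it, 14 were lower, with a median of -1.05.

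Over all 21892 genes, 0 were called between KO_Pre and WT_Pre and 3350 between KO_Ctrl and WT_Ctrl, a call being an adjusted p under 0.05 in limma. Dock10 itself was lower in KO after culture, by -0.54 (SE 0.17, adjusted p = 0.0295) without IL-4 and -1.07 (SE 0.17, adjusted p = 2.23e-04) with it. Before culture it averaged -0.08 ± 0.20 in KO_Pre and 0.30 ± 0.23 in WT_Pre and was not called, and whether its probes lie in the deleted part is not known here. Of 9 B cell markers, 7 were lower in KO_Ctrl than in WT_Ctrl (median -0.62 over the 9), and 3 were lower and 1 higher in KO_IL4. The ratio at control spots without target, a measure of background, lay above 0 in the arrays before culture of mice 6 to 9 only. It lay between -1.79 and -0.21 in all cultured arrays, and between -1.74 and -0.19 in arrays before culture numbered 1 to 5 and 10. The SD of the ratios over all genes was 0.29 to 0.46 in numbers 6 to 9 before culture and 0.59 to 0.85 in the others before culture. Xist and Y-linked Eif2s3y separated 10 arrays before culture, numbers 1 to 4 and 10 of both genotypes, from the other 30. Xist lay between 4.7 and 5.9 in the 10 and between -1.59 and 0.85 in the 30. Eif2s3y lay between -11.14 and -10.10 in the 10 and between -0.15 and 0.68 in the 30, which include all cultured arrays. By these transcripts the arrays numbered 10 before and after culture differ in sex, and so are not of the same animal, in either genotype. KO_Pre number 10 had an Xist ratio of 4.99 to the pool, which is described as holding its RNA. As an equal part of that pool it could not have a ratio this high, so the make-up of the pool is not settled here.

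The 45 interferon-stimulated genes were not called between the genotypes before culture and were mostly lower in knockout cells after it. The median log2 ratio over them, taken in each array, averaged 0.06 ± 0.13 in KO_Pre and 0.03 ± 0.18 in WT_Pre (SD, n = 10 each). In KO_Ctrl it was -1.71, -1.82, -1.66, -1.49 and -1.82 for mice 6 to 10, the order used for all cultured groups below, against -1.20, 0.26, -0.38, -0.26 and -0.25 in WT_Ctrl. With IL-4 it was -1.60, -1.73, -1.59, -1.69 and -1.72 in KO_IL4, against -1.33, -0.14, -0.65, -0.61 and -0.74 in WT_IL4. The KO arrays lay close together and below all WT arrays in both conditions, and the WT arrays spread more widely, with mouse 6 lowest and mouse 7 highest.

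**Figure D1:**
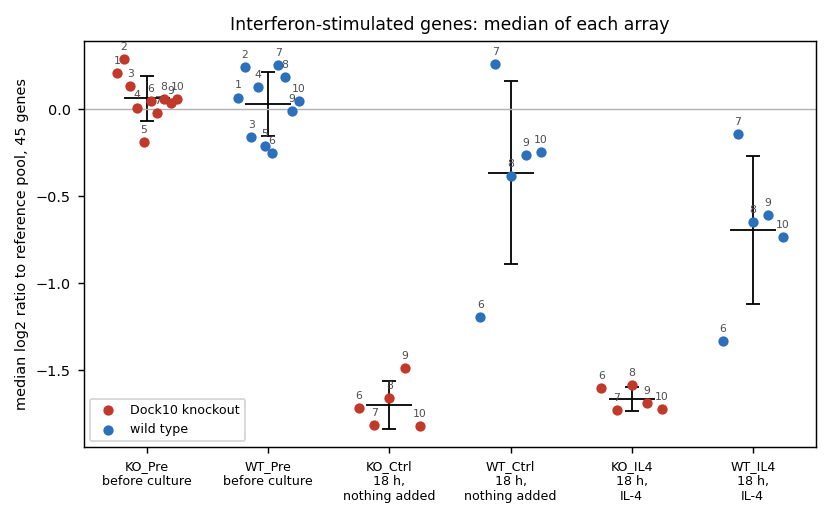
Median log2 ratio to the reference pool over the 45 interferon-stimulated genes (vertical axis) in each of the 40 arrays, by group (horizontal axis), with mouse numbers beside the points, KO in one colour and WT in the other, and bars at the group means with 1 SD on either side. The 5 KO_Ctrl arrays lie between -1.82 and -1.49 and the 5 WT_Ctrl arrays between -1.20 and 0.26, while the groups before culture lie around 0.

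After 18 h with nothing added, 40 of the 45 genes were lower in KO_Ctrl than in WT_Ctrl and 0 were higher. Of all genes, 8.43% were lower and 6.87% higher in this comparison. The median difference was -1.23 over the 45 genes and 0.05 over all genes. In 28 of the 45 every KO_Ctrl array lay below every WT_Ctrl array, against 6.43% of all genes. The difference was at least 1 in size for 30 genes and at least 2 for 13. Where the labels name no other source, arrays of a group are separate mice, and in bulk RNA fewer cells of a type and less RNA per cell cannot be told apart.

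Antiviral effectors made up 14 of the genes, and 12 of them were lower in KO_Ctrl (median difference -1.86). Mx2, a dynamin-like GTPase, had log2 ratios of -4.44, -3.19, -4.03, -3.50 and -3.91 in KO_Ctrl, against -2.64, 0.60, -0.48, -0.51 and -0.45 in WT_Ctrl, a difference of -3.12 (SE 0.45, adjusted p = 2.08e-05). Mx1, its paralog, known to carry a disrupted reading frame in common laboratory strains, had -4.04, -4.19, -2.86, -3.75 and -3.64 in KO_Ctrl, against -2.67, 0.81, -0.50, -0.56 and -0.23 in WT_Ctrl, a difference of -3.06 (SE 0.49, adjusted p = 7.32e-05). For both genes all 5 KO_Ctrl arrays were below all WT_Ctrl arrays, and the WT array of mouse 6 stood nearest to them. Ifit1, which binds viral RNA that lacks the cap methylation of host messages, had -3.08, -3.06, -4.71, -3.05 and -3.88 in KO_Ctrl, against -3.38, 0.20, -0.42, -0.57 and -0.45 in WT_Ctrl, a difference of -2.63 (SE 0.51, adjusted p = 6.08e-04). Its WT_Ctrl array of mouse 6 lay within the KO_Ctrl range, while the other 4 WT_Ctrl arrays lay well above it. The paralog Ifit1bl1 had -2.80, -2.67, -2.37, -2.09 and -2.90 in KO_Ctrl, against -1.32, 1.10, 0.55, 0.63 and 0.22 in WT_Ctrl, a difference of -2.80. Ifit3, which joins Ifit1 in a complex, had -2.37, -1.92, -0.84, -1.93 and -1.81 in KO_Ctrl, against -1.31, 1.47, 0.52, 0.46 and 0.41 in WT_Ctrl, a difference of -2.08. Ifit2, also of this family of tetratricopeptide proteins, had -1.49, -1.24, -2.26, -1.26 and -1.93 in KO_Ctrl, against -1.01, 0.33, 0.31, 0.31 and 0.05 in WT_Ctrl, a difference of -1.64. In these 4 Ifit genes the WT_Ctrl ratios of mice 7 to 10 were at -0.57 or above, and all KO_Ctrl ratios were at -0.84 or below.

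Rsad2 (viperin), which makes a chain-terminating nucleotide, and its neighbour on chromosome 12, Cmpk2, a mitochondrial nucleotide kinase, were both lower. Cmpk2 had -4.57, -4.17, -4.78, -4.26 and -4.89 in KO_Ctrl, against -3.58, -0.26, -1.35, -1.22 and -1.32 in WT_Ctrl, a difference of -2.99 (SE 0.44, adjusted p = 2.20e-05). Rsad2 had -3.70, -2.34, -2.46, -2.34 and -1.43 in KO_Ctrl, against -1.84, 1.48, 0.23, -0.15 and -0.10 in WT_Ctrl, a difference of -2.38 (SE 0.52, adjusted p = 0.00199). Cmpk2 was the lowest gene of the set in KO_Ctrl relative to the pool, with a mean of -4.54 ± 0.32, and the WT_Ctrl array of mouse 6 was again the lowest of its group for both. Samd9l, an inhibitor of translation and growth, had -1.72, -1.76, -1.92, -1.85 and -2.18 in KO_Ctrl, against -1.17, -0.41, -0.51, -0.51 and -0.65 in WT_Ctrl, a difference of -1.23 (SE 0.14, adjusted p = 6.16e-07). The exonuclease gene Isg20 had -0.68, -0.72, -0.43, -0.68 and -0.71 in KO_Ctrl, against -0.46, 0.52, 0.12, 0.04 and 0.06 in WT_Ctrl, a difference of -0.70. Slfn8, of the Schlafen family, had -1.62, -1.39, -1.08, -1.11 and -1.36 in KO_Ctrl, against -0.97, -0.29, -0.39, -0.27 and -0.33 in WT_Ctrl, a difference of -0.86. The ranges of the groups overlapped for Isg20 and did not overlap for Samd9l and Slfn8. Bst2 (tetherin), which holds budding virions at the cell surface, had -1.02, -2.26, -0.52, -0.75 and -1.35 in KO_Ctrl, against -0.29, 0.40, -0.39, 0.33 and 0.68 in WT_Ctrl, a difference of -1.33 (SE 0.30, adjusted p = 0.0028), with ranges that did not overlap. Ifitm3, which hinders fusion of viruses with endosomes, was not called: it averaged -1.02 ± 0.48 in KO_Ctrl and -0.71 ± 0.37 in WT_Ctrl (SD, n = 5 each), a difference of -0.30 (SE 0.25, adjusted p = 0.468). Slfn5 was not called either, with 0.15, 0.76, 0.23, 0.13 and -0.22 in KO_Ctrl, against 0.06, 0.12, 0.02, -0.37 and 0.07 in WT_Ctrl and a difference of 0.23 (SE 0.15, adjusted p = 0.366). Its 2 probes disagreed, one with a difference of 0.68 (adjusted p = 0.00394 over all probes) and the other with -0.22 (adjusted p = 0.672).

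All 12 genes of RNA and DNA sensing and of the oligoadenylate synthetases were lower in KO_Ctrl, with a median difference of -1.40. Ifih1 (MDA5) and Ddx58 (RIG-I) detect viral RNA in the cytosol. Ifih1 had -1.26, -1.86, -1.84, -1.44 and -1.58 in KO_Ctrl, against -0.97, -0.48, -0.42, -0.01 and -0.31 in WT_Ctrl, a difference of -1.16 (SE 0.17, adjusted p = 3.23e-05). Ddx58 had -1.39, -1.51, -1.60, -1.49 and -1.62 in KO_Ctrl, against -1.20, -0.33, -0.54, -0.57 and -0.59 in WT_Ctrl, a difference of -0.88 (SE 0.14, adjusted p = 7.52e-05). Dhx58 (LGP2), which modulates both sensors, had -1.53, -1.53, -1.73, -1.31 and -1.47 in KO_Ctrl, against -1.15, 0.50, -0.15, -0.06 and 0.00 in WT_Ctrl, a difference of -1.34. The 3 genes thus showed 1 pattern, KO_Ctrl arrays in a narrow band below the wild-type arrays and mouse 6 nearest to that band. The related helicase gene Ddx60 had -2.47, -3.15, -3.10, -1.30 and -1.94 in KO_Ctrl, against -1.35, -0.36, 0.08, -0.07 and -0.28 in WT_Ctrl, a difference of -1.99. Zbp1, a sensor of nucleic acid in the Z form that can start necroptosis, had -2.83, -2.08, -1.93, -2.29 and -2.49 in KO_Ctrl, against -1.79, -0.11, -0.48, -0.65 and -0.24 in WT_Ctrl, a difference of -1.67 (SE 0.26, adjusted p = 5.46e-05). Eif2ak2 (PKR), a kinase that halts translation on binding double-stranded RNA, had -1.51, -1.43, -1.43, -1.39 and -1.91 in KO_Ctrl, against -1.06, 0.54, -0.12, -0.15 and -0.12 in WT_Ctrl, a difference of -1.35 (SE 0.25, adjusted p = 3.24e-04). Adar, which edits double-stranded RNA and so keeps host RNA from setting off these sensors, showed the smallest difference of the 12, -0.54 (SE 0.13, adjusted p = 0.00602).

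The oligoadenylate synthetases make the messenger that activates RNase L. Oas2 had -3.06, -2.92, -2.09, -2.84 and -2.71 in KO_Ctrl, against -2.12, 0.32, -0.59, -0.43 and -0.47 in WT_Ctrl, a difference of -2.07 (SE 0.34, adjusted p = 9.07e-05). Oas1a had -2.31, -2.23, -2.31, -1.94 and -2.19 in KO_Ctrl, against -1.32, 0.40, -0.25, -0.11 and -0.28 in WT_Ctrl, a difference of -1.88 (SE 0.25, adjusted p = 6.50e-06). Oas3 had -1.50, -1.10, -0.78, -1.16 and -0.78 in KO_Ctrl, against -0.54, 0.39, 0.03, 0.14 and 0.26 in WT_Ctrl, a difference of -1.12. The 3 enzymes were lower in all KO_Ctrl arrays than in at least 4 of the 5 WT_Ctrl arrays. Oasl2, a relative in the mouse, had -2.43, -2.57, -2.61, -2.13 and -2.73 in KO_Ctrl, against -1.95, 0.65, -0.32, -0.16 and -0.19 in WT_Ctrl, a difference of -2.10 (SE 0.38, adjusted p = 3.24e-04). Oasl1, which in mouse limits the translation of Irf7, had -2.19, -2.30, -1.59, -1.79 and -1.92 in KO_Ctrl, against -1.69, 0.25, -0.49, -0.35 and -0.29 in WT_Ctrl, a difference of -1.44.

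**Figure D2:**
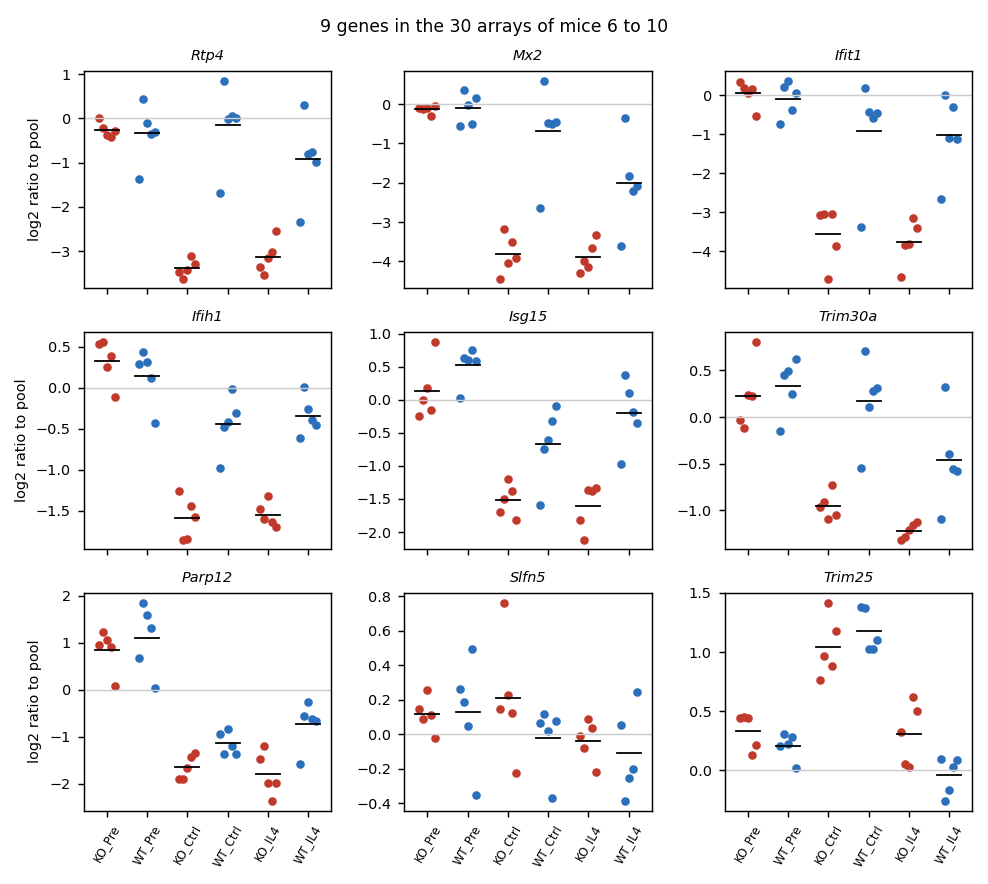
Log2 ratio to the reference pool (vertical axis) of 9 interferon-stimulated genes in each array, by group (horizontal axis), with a bar at each group mean. In each panel but that of Slfn5 the KO_Ctrl mean lies below the WT_Ctrl mean, and the lowest WT_Ctrl point of Rtp4 is mouse 6, at -1.69.

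Genes of ISG15 conjugation, of ADP-ribosylation and of the TRIM family were lower in 7 of 9 cases, with a median difference of -0.88. Usp18, which removes ISG15 from proteins and damps signalling at the receptor, had -3.60, -3.50, -3.14, -2.73 and -2.69 in KO_Ctrl, against -2.31, 0.68, -0.47, -0.36 and -0.43 in WT_Ctrl, a difference of -2.55 (SE 0.40, adjusted p = 5.37e-05). Isg15, the ubiquitin-like modifier itself, differed by less, with -1.70, -1.50, -1.20, -1.39 and -1.82 in KO_Ctrl, against -1.59, -0.74, -0.61, -0.32 and -0.09 in WT_Ctrl and a difference of -0.85 (SE 0.26, adjusted p = 0.0239). Herc6, the ligase that attaches ISG15 in mouse, had -2.02, -1.98, -2.58, -2.08 and -2.44 in KO_Ctrl, against -1.71, -0.47, -0.77, -0.91 and -1.07 in WT_Ctrl, a difference of -1.23 (SE 0.24, adjusted p = 7.18e-04). The WT_Ctrl arrays of Herc6 and Isg15 were all below 0 and those of Usp18 all but 1. Parp14, an ADP-ribosyltransferase known for its part in Stat6 signalling, had -1.41, -1.56, -1.59, -1.53 and -1.75 in KO_Ctrl, against -0.97, -0.03, -0.31, -0.37 and -0.35 in WT_Ctrl, a difference of -1.16 (SE 0.14, adjusted p = 2.69e-06). Dtx3l, a ubiquitin ligase that works with Parp9, averaged -1.83 ± 0.26 in KO_Ctrl and -0.96 ± 0.39 in WT_Ctrl (SD, n = 5 each), a difference of -0.88. Parp9 averaged -1.26 ± 0.13 in KO_Ctrl and -0.82 ± 0.26 in WT_Ctrl, a difference of -0.45 (SE 0.12, adjusted p = 0.0129), and its 2 probes disagreed, with differences of -1.02 and 0.13. Trim30a, which in mouse restrains Toll-like receptor signals, had -0.97, -0.91, -1.09, -0.73 and -1.05 in KO_Ctrl, against -0.55, 0.71, 0.11, 0.28 and 0.31 in WT_Ctrl, a difference of -1.12 (SE 0.22, adjusted p = 5.20e-04). Trim25, a ubiquitin ligase that activates RIG-I, was not called, with 0.76, 0.96, 1.42, 0.89 and 1.18 in KO_Ctrl, against 1.38, 1.37, 1.03, 1.02 and 1.10 in WT_Ctrl and a difference of -0.14 (SE 0.13, adjusted p = 0.532). Of its 2 probes one was lower, by -0.78 (adjusted p = 4.66e-05 over all probes), and the other had 0.50 (adjusted p = 0.253). Parp12, another ADP-ribosyltransferase, was not called, with -1.89, -1.90, -1.66, -1.43 and -1.33 in KO_Ctrl, against -0.93, -1.35, -0.83, -1.18 and -1.37 in WT_Ctrl and a difference of -0.51 (SE 0.29, adjusted p = 0.263).

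Of the other 10 genes, 9 were lower, with a median difference of -1.04. Rtp4, a chaperone of membrane receptors, had the largest difference of the 45, with -3.48, -3.62, -3.42, -3.11 and -3.29 in KO_Ctrl, against -1.69, 0.85, -0.01, 0.06 and 0.01 in WT_Ctrl and a difference of -3.23 (SE 0.38, adjusted p = 1.74e-06). Ifi27l2a, a small mitochondrial protein gene, had -2.22, -2.01, -2.01, -1.86 and -2.04 in KO_Ctrl, against -1.09, 1.57, 0.64, 0.76 and 0.67 in WT_Ctrl, a difference of -2.54 (SE 0.40, adjusted p = 5.09e-05). Xaf1, which opposes the apoptosis inhibitor XIAP, had -2.36, -2.67, -2.25, -2.52 and -2.88 in KO_Ctrl, against -1.58, 0.48, 0.08, 0.06 and -0.06 in WT_Ctrl, a difference of -2.33 (SE 0.34, adjusted p = 2.35e-05). In these 3 genes all KO_Ctrl arrays were below all WT_Ctrl arrays. Epsti1 had -2.11, -1.82, -2.15, -2.10 and -2.38 in KO_Ctrl, against -1.69, -0.70, -0.82, -0.99 and -1.09 in WT_Ctrl, a difference of -1.05. Helz2, a helicase that coactivates nuclear receptors, had -2.03, -2.08, -1.56, -1.98 and -1.91 in KO_Ctrl, against -1.48, -0.35, -0.93, -0.67 and -0.69 in WT_Ctrl, a difference of -1.09. Ifi35, Lgals3bp, Tor3a and Lgals9 were lower by -0.33, -0.99, -0.70 and -1.02 (adjusted p = 0.0235, 0.00702, 0.00534 and 0.00469). Sp100, of nuclear bodies, was not called, with -0.43, -0.61, 0.15, -0.43 and -0.45 in KO_Ctrl, against -0.39, 0.16, -0.24, -0.11 and -0.18 in WT_Ctrl and a difference of -0.20 (SE 0.14, adjusted p = 0.382). Of the 19 genes with several probes, 4 had probes that differed in sign here (Parp9, Slfn5, Sp100 and Trim25).

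Mice 6 and 7 stood at the ends of the spread within WT_Ctrl. Mouse 6 had the lowest WT_Ctrl ratio for 41 of the 45 genes and mouse 7 the highest for 37. With IL-4, mouse 6 was lowest for 41 and mouse 7 highest for 38, so the 2 cultures of the same mice agreed in this. Before culture mouse 6 was the lowest of the 10 WT_Pre arrays for 18 of the 45 genes, and mouse 5, which has no cultured array, for 15. Left without wild-type mouse 6, the 4 WT_Ctrl arrays stood above all KO_Ctrl arrays for 40 of the 45 genes (9.60% of all genes), and the 4 WT_IL4 arrays above all KO_IL4 arrays for 39 (15.7%). The count of genes called lower was then 40 without IL-4 and 40 with it. Dock10 in mouse 6 lay towards the KO arrays after culture. It was -0.89 in WT_Ctrl, inside the KO_Ctrl range of -1.56 to -0.72, with -0.64 to -0.36 in WT_Ctrl mice 7 to 10. With IL-4 it was 1.04 in WT_IL4, against 1.67 to 1.80 in mice 7 to 10 and 0.26 to 0.83 in KO_IL4. Before culture mouse 6 had the highest WT_Pre ratio, 0.62. The identity and make-up of these samples were not tested. The haemoglobin gene Hbb-b1 also set mouse 6 apart, with 2.99, 3.16, 2.79, 2.75 and 2.45 in KO_Ctrl, against 2.39, -0.13, -0.16, -0.52 and -0.41 in WT_Ctrl, and it averaged 2.83 ± 0.27 in KO_Ctrl and 0.23 ± 1.21 in WT_Ctrl (adjusted p = 1.41e-04). Over the 10 erythroid markers 1 was higher in KO_Ctrl and 9 were not called, and their median per array lay between -0.20 and 0.07 in KO_Ctrl and between -0.73 and 0.03 in WT_Ctrl.

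Markers of other cells that make or answer interferon were set beside these values. Of 10 markers of plasmacytoid dendritic cells, 1 was higher and 1 lower in KO_Ctrl, and their median per array lay between 0.13 and 0.79 in KO_Ctrl and between 0.28 and 0.55 in WT_Ctrl. Of 15 macrophage markers, 1 was higher and 2 were lower, with medians per array of -0.78 to 0.10 in KO_Ctrl and -0.38 to 0.37 in WT_Ctrl. Of 10 dendritic cell markers, 1 was higher and 1 lower, with -2.22 to -1.76 in KO_Ctrl and -1.81 to -1.47 in WT_Ctrl. Of 10 T cell markers, 1 was higher and 3 were lower, with -0.38 to 0.25 in KO_Ctrl and -0.13 to 1.51 in WT_Ctrl. Of 12 neutrophil markers, 1 was higher and 1 lower, and of 10 NK cell markers 2 were higher and 0 lower. The median per array of the 9 B cell markers lay between -1.16 and -0.82 in KO_Ctrl and between -0.77 and -0.08 in WT_Ctrl, so that these ranges did not overlap. The parts of B cells and of these other cells in the result were not tested. Ratios to a pool cannot show which of these markers were at 0.

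With IL-4, 35 of the 45 genes were lower in KO_IL4 than in WT_IL4 and 0 were higher, where 9.85% of all genes were lower and 8.57% higher. The median difference was -0.89 over the 45 genes and -0.08 over all genes. In 20 genes every KO_IL4 array lay below every WT_IL4 array (11.6% of all genes). Under quantile normalization between arrays 14 of the 45 were called, and without the WT_IL4 array of mouse 7 25 were. Ddx60 had -3.08, -2.07, -2.81, -3.06 and -3.16 in KO_IL4, against -1.97, 0.84, -0.13, -0.78 and 0.11 in WT_IL4, a difference of -2.45 (SE 0.40, adjusted p = 2.81e-04). Cmpk2 had -4.34, -4.27, -4.11, -4.87 and -4.15 in KO_IL4, against -3.79, -0.94, -2.25, -1.95 and -1.97 in WT_IL4, a difference of -2.17 (SE 0.44, adjusted p = 0.00142). Rtp4 had -3.35, -3.54, -3.16, -3.01 and -2.55 in KO_IL4, against -2.33, 0.31, -0.80, -0.77 and -0.97 in WT_IL4, a difference of -2.21 (SE 0.38, adjusted p = 4.68e-04). These genes and Ifit1 (-2.74) were the 4 with a difference of at least 2 in size. Zbp1 had -1.44, -1.60, -1.39, -1.65 and -1.48 in KO_IL4, against -0.69, 0.78, 0.70, 0.62 and 0.53 in WT_IL4, a difference of -1.90 (SE 0.26, adjusted p = 5.76e-05), with groups that did not overlap.

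The genes lower in KO were mostly shared between the conditions, which use different arrays of the same mice and the same pool. Of the 40 lower without IL-4 and the 35 lower with it, 33 were lower in both. All 12 sensing and oligoadenylate synthetase genes were among them, as means of their probes. For Ifih1 and Adar 1 of the 2 probes was not called in either condition. With IL-4 the call was lost in 10 of 25 alternatives for Oasl1 and in 9 of 24 for Adar. Called lower without IL-4 and not called with it were Ifit3, Bst2, Parp9, Lgals3bp, Helz2, Tor3a and Lgals9. Ifitm3 and Parp12 were called lower with IL-4 and not called without it. Ifitm3 had -0.97, -0.87, -1.20, -1.47 and -1.88 in KO_IL4, against -0.42, -0.34, -0.25, 0.19 and -0.47 in WT_IL4, a difference of -1.02 (SE 0.25, adjusted p = 0.00511), with no overlap. Parp12 had -1.47, -1.20, -1.99, -2.35 and -1.98 in KO_IL4, against -1.58, -0.55, -0.26, -0.61 and -0.66 in WT_IL4, a difference of -1.07 (SE 0.29, adjusted p = 0.0112). Slfn5, Trim25 and Sp100 were called in neither, with differences of 0.07, 0.35 and 0.13 with IL-4. For Trim25 and Slfn5 these are means of probes that disagreed. With IL-4 the probes of Trim25 had -0.61 (adjusted p = 0.00116 over all probes) and 1.30 (adjusted p = 0.00214), and those of Slfn5 had 0.71 (adjusted p = 0.00309) and -0.57 (adjusted p = 0.163). By value 34 of the 45 genes had the more negative difference without IL-4. The main test of that change, given with the IL-4 effects, did not call it for any gene. With the mouse as a block it was called for 3.

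In KO_Pre vs WT_Pre 0 of the 45 were called by limma (0% of all genes), and 0 of the 45 had an unadjusted p under 0.05, which 892 of all genes had. The median difference was 0.03, and single differences ran from -0.44 for Ifitm3 to 0.25 for Ifit1bl1. Mx2 averaged -0.13 ± 0.17 in KO_Pre and -0.09 ± 0.33 in WT_Pre, a difference of -0.03 (SE 0.12, adjusted p = 1). Rtp4, the gene with the largest difference after culture, averaged -0.19 ± 0.35 in KO_Pre and -0.28 ± 0.53 in WT_Pre. Their SE of 0.12 and 0.19 at n = 10 are small beside the differences of over 3 seen in these genes after culture. Markers of other cells ran lower by value in KO_Pre, with 0 called. Of the 15 macrophage markers 14 were below 0 in KO_Pre vs WT_Pre and 10 had an unadjusted p under 0.05, with a median difference of -0.57. The median was -0.63 over the neutrophil markers, -0.45 over the NK cell markers and 0.00 over the B cell markers.

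Some of the genes were lower with IL-4 in wild-type cells. In WT_IL4 vs WT_Ctrl 14 of the 45 were lower and 2 higher, where 11.4% of all genes were lower and 15.5% higher, and the median difference was -0.31 (0.12 over all genes). Fits of the compared groups alone called 7 lower and 0 higher, where 7361 of all genes were called, 65.0% of them higher. With the mouse as a block, since the labels give the same mice in both groups, 20 were lower and 2 higher. Of all genes 6410 were then called, 58.8% of them higher. Rtp4, Ifi27l2a, Xaf1, Lgals3bp, Usp18 and Ddx58 were added to those called lower. Rtp4 had -2.33, 0.31, -0.80, -0.77 and -0.97 in WT_IL4, against -1.69, 0.85, -0.01, 0.06 and 0.01 in WT_Ctrl, a difference of -0.76 (adjusted p = 8.38e-04 with the block and 0.142 without it), and was lower with IL-4 in each of the 5 mice. The largest falls were those of Ifit1bl1 and Ifit3. Ifit1bl1 had -4.45, -2.31, -2.35, -2.08 and -2.41 in WT_IL4, against -1.32, 1.10, 0.55, 0.63 and 0.22 in WT_Ctrl, a difference of -2.95 (SE 0.43, adjusted p = 1.16e-05), with no overlap. Ifit3 fell by 1.70 (SE 0.37, adjusted p = 0.00129) and Ifit2 by 1.33 (SE 0.29, adjusted p = 0.00121). Trim25 had 0.10, -0.26, -0.17, 0.03 and 0.09 in WT_IL4, against 1.38, 1.37, 1.03, 1.02 and 1.10 in WT_Ctrl, a difference of -1.22 (SE 0.13, adjusted p = 7.01e-08). The other genes that fell were Mx1, Mx2, Oasl2, Oas2, Helz2, Oasl1, Trim30a, Samd9l, Parp14 and Sp100, by 0.41 to 1.60. Zbp1 went the other way, with -0.69, 0.78, 0.70, 0.62 and 0.53 in WT_IL4, against -1.79, -0.11, -0.48, -0.65 and -0.24 in WT_Ctrl, a difference of 1.04 (SE 0.26, adjusted p = 0.00421), and Ifi35 rose by 0.31 (SE 0.10, adjusted p = 0.0216). Leaving out the WT_Ctrl array of mouse 7 or the WT_IL4 array of mouse 6 brought the count called to 8.

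In knockout cells few of the genes were called with IL-4, at shares near those of all genes. In KO_IL4 vs KO_Ctrl 3 of the 45 were lower (Ifit2, Ifit1bl1 and Trim25) and 1 higher (Ifi35). Of all genes 4.39% were lower and 4.00% higher. The median difference over the 45 genes was -0.07. Ifit2 had -3.54, -3.07, -2.86, -3.35 and -2.83 in KO_IL4, against -1.49, -1.24, -2.26, -1.26 and -1.93 in KO_Ctrl, a difference of -1.50 (SE 0.29, adjusted p = 0.00114). Ifit1bl1 had -3.83, -4.67, -4.05, -4.10 and -4.04 in KO_IL4, against -2.80, -2.67, -2.37, -2.09 and -2.90 in KO_Ctrl, a difference of -1.57 (SE 0.43, adjusted p = 0.0204). Trim25 fell by 0.74 (SE 0.13, adjusted p = 3.26e-04) and Ifi35 rose by 0.32 (SE 0.10, adjusted p = 0.0404). All 4 were called in the same direction in wild-type cells. With the mouse as a block 4 were lower and 3 higher, Oasl2, Zbp1 and Parp9 being added, where 2051 of all genes were called. Fits of the compared groups alone also called 7, where 1168 of all genes were called. Without the KO_IL4 array of mouse 7 the count was 2.

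The IL-4 effect was not called as different between genotypes for any of the 45 genes by limma, while 1.19% of all genes were called. The median of the differences of effects was 0.36, KO minus WT (0.19 without the WT_Ctrl array of mouse 7 and 0.51 without that of mouse 6), and 6 of the 45 genes had an unadjusted p under 0.05. The largest was that of Ifit3, 1.45 (SE 0.53, adjusted p = 0.166). With the mouse as a block 3 of the 45 were called, where 353 of all genes were called. With array weights 3 of the 45 were called, and 2 without wild-type mouse 6. Without the WT_Ctrl array of mouse 6 alone 3 were called, and without the KO_Ctrl array of mouse 8 1 was. The SE of these differences ran from 0.14 to 0.73.

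More of the genes fell over the 18 h of culture in knockout than in wild-type cells, and the falls were larger. In KO_Ctrl vs KO_Pre of mice 6 to 10, 43 of the 45 were lower, 1 (Trim25) was higher and 1 (Slfn5) was not called, where 31.2% of all genes were lower and 19.8% higher. In WT_Ctrl vs WT_Pre 15 were lower and 1 (Trim25) was higher, where 26.4% of all genes were lower and 13.2% higher. The median difference was -1.77 in KO and -0.38 in WT cells, against -0.12 and -0.15 over all genes. The WT median was -0.16 without the WT_Ctrl array of mouse 6 and -0.56 without that of mouse 7. Falls of at least 1 in size were seen for 38 genes in KO and 7 in WT cells. The genes that were lower in both numbered 15, and those lower in KO and not called in WT 28. The ratio at control spots without target also differed between these groups of mice 6 to 10. Its means were -1.34 in KO_Ctrl and 0.52 in KO_Pre, and -1.07 in WT_Ctrl and 0.12 in WT_Pre. Before culture it was above 0 only in numbers 6 to 9, and it was -0.86 in KO_Pre and -0.91 in WT_Pre number 10. With that ratio as a covariate 40 genes were called in KO and 14 in WT cells. Without the arrays before culture numbered 10, 42 were lower in KO and 14 in WT cells, and the difference between genotypes was called for 30. B cell markers moved with these genes, with 8 of 9 lower in KO_Ctrl vs KO_Pre (median -1.09) and 2 of 9 lower in WT_Ctrl vs WT_Pre (median -0.27), and the difference of their culture effects was called, more negative in KO, for 3. Of the 10 dendritic cell markers 8 were lower in KO and 9 in WT cells, and of the 10 NK cell markers likewise 8 in KO (median -1.15) and 9 in WT cells (median -2.27). The part of these cells in the result was not tested.

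Mx2 had -4.44, -3.19, -4.03, -3.50 and -3.91 in KO_Ctrl, against -0.09, -0.12, -0.10, -0.32 and -0.05 in KO_Pre, a difference of -3.68 (SE 0.45, adjusted p = 2.72e-07). In wild-type cells the difference between WT_Ctrl and WT_Pre was -0.58 (SE 0.45, adjusted p = 0.314), which was not called. Usp18 had -3.60, -3.50, -3.14, -2.73 and -2.69 in KO_Ctrl, against -0.03, -0.24, -0.12, -0.13 and 0.18 in KO_Pre, a difference of -3.06 (SE 0.40, adjusted p = 6.81e-07), and -0.38 (SE 0.40, adjusted p = 0.467) in wild-type cells. Parp12 was low after culture in both genotypes, with -1.89, -1.90, -1.66, -1.43 and -1.33 in KO_Ctrl, against 0.95, 1.23, 1.06, 0.92 and 0.08 in KO_Pre, and with -0.93, -1.35, -0.83, -1.18 and -1.37 in WT_Ctrl, against 0.68, 1.86, 1.59, 1.32 and 0.05 in WT_Pre. Its differences were -2.49 in KO and -2.23 in WT cells. Cmpk2, Ddx60, Isg15, Ifitm3, Herc6 and Epsti1 also fell by at least 1 in both genotypes. Trim25 rose by 0.71 (SE 0.13, adjusted p = 5.72e-05) in KO and by 0.97 (SE 0.13, adjusted p = 2.23e-06) in WT cells as the mean of its 2 probes. One of them rose, by 2.17 in KO (adjusted p = 5.66e-07 over all probes) and 1.75 in WT cells (adjusted p = 3.17e-05), and the other fell by 0.75 in KO cells (adjusted p = 1.27e-05) and had 0.20 in WT cells (adjusted p = 0.198). The probes of Slfn5, not called as a gene in KO cells, had 1.26 (adjusted p = 4.30e-07) and -1.08 (adjusted p = 0.00308) there.

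The culture effect differed between genotypes for 31 of the 45 genes, all with the more negative effect in KO cells, where 4.46% of all genes were called lower and 2.22% higher. The median of these differences, KO minus WT, was -1.24 over the 45 genes and 0.05 over all genes. This test shares the KO_Ctrl and WT_Ctrl arrays with the genotype comparison without IL-4 and is not separate support for it. Differences of effects were below -3 for Rtp4 (-3.31 (SE 0.54, adjusted p = 3.55e-04)), Ifit1bl1 (-3.26), Mx1 (-3.22), Cmpk2 (-3.20) and Mx2 (-3.09). By role, 10 of 14 effectors, 11 of 12 sensing and oligoadenylate synthetase genes, 5 of 9 genes of ISG15, ADP-ribose and TRIM proteins and 5 of the other 10 were called. The 14 not called included Isg15 (-0.47 (SE 0.36, adjusted p = 0.532)), Rsad2 (-2.25 (SE 0.73, adjusted p = 0.0654)) and Parp12 (-0.26 (SE 0.41, adjusted p = 0.791)). Under quantile normalization the count was 14.

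**Figure D3:**
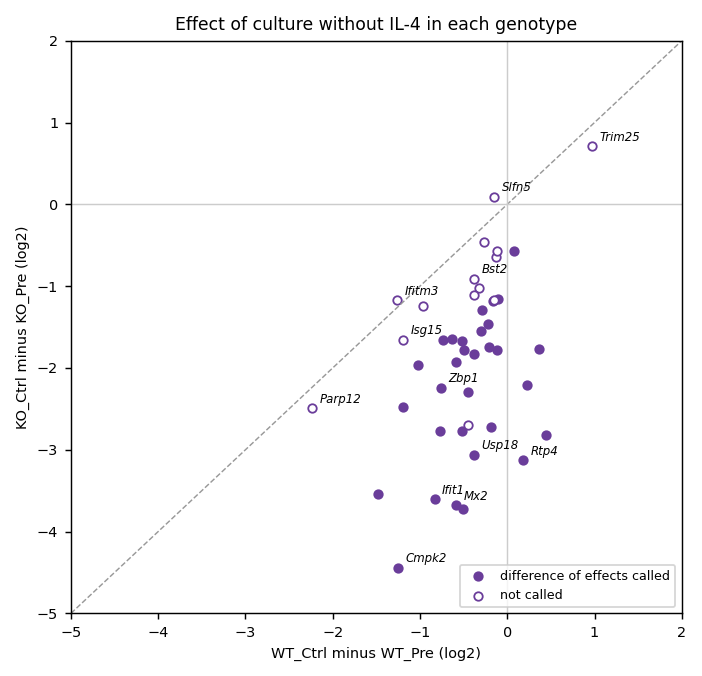
Change in log2 ratio over culture in KO cells (KO_Ctrl minus KO_Pre, vertical axis) against that in WT cells (WT_Ctrl minus WT_Pre, horizontal axis) for the 45 genes, each a point, coloured by whether the difference between the 2 effects was called. Most points lie below the line of equal change, among them the 31 genes called, and Trim25, the mean of 2 probes that disagreed in KO cells, stands at the upper right.

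Signal genes between interferon and these targets were described from lists chosen alongside them. Of 12 receptor and signal genes measured, 5 were lower and 1 higher in KO_Ctrl, and 3 were lower and 1 higher in KO_IL4. Irf7, which drives the transcription of interferon alpha genes and is itself induced by interferon, had -2.70, -2.23, -2.41, -2.26 and -2.69 in KO_Ctrl, against -1.86, 0.99, -0.61, -0.23 and -0.29 in WT_Ctrl, a difference of -2.06 (SE 0.37, adjusted p = 2.48e-04). With IL-4 its difference was -1.61 (SE 0.37, adjusted p = 0.00342). Stat2 had -0.97, -1.11, -0.84, -0.95 and -1.05 in KO_Ctrl, against -0.57, 0.40, 0.02, -0.01 and 0.10 in WT_Ctrl, a difference of -0.97 (SE 0.13, adjusted p = 7.93e-06), and -0.47 (SE 0.13, adjusted p = 0.0127) with IL-4. Both genes thus ran like the targets, low in every KO_Ctrl array. Irf9 was lower in KO_Ctrl, by -0.65 (SE 0.21, adjusted p = 0.0405), and not called with IL-4 (0.04 (SE 0.21, adjusted p = 0.918)). Tyk2 was lower in KO_Ctrl by -0.92 (SE 0.28, adjusted p = 0.0267). Ifnar2 was higher in KO cells in both conditions, by 0.37 (SE 0.12, adjusted p = 0.0321) and 0.48 (SE 0.12, adjusted p = 0.00562), and Ifnar1 was not called in either (-0.08 (SE 0.14, adjusted p = 0.766) and 0.17 (SE 0.14, adjusted p = 0.376)).

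Ratios of the interferon genes did not run lower with the targets, but ratios to a pool cannot show whether these genes were above background. Of 16 measured, 1 was higher and 0 lower in KO_Ctrl (6.87% and 8.43% of all genes). In KO_IL4 6 were higher and 1 lower (8.57% and 9.85%). Over culture without IL-4, 11 were higher and 1 lower in KO cells (19.8% and 31.2% of all genes). In WT cells 5 were higher and 1 lower (13.2% and 26.4%). Ifnb1 was not called, with -0.63, -0.37, -0.29, -0.30 and -0.96 in KO_Ctrl, against -1.05, -1.18, -0.78, -1.28 and -0.89 in WT_Ctrl and a difference of 0.52 (SE 0.81, adjusted p = 0.727) without IL-4 and -1.06 (SE 0.81, adjusted p = 0.363) with it. Its KO_IL4 arrays had -7.17, -0.70, 0.57, 0.02 and -0.29, 1 of them far below the others. With IL-4, Ifna13, Ifna12 and Ifna5 were higher in KO_IL4 by 1.34, 1.27 and 0.91 (adjusted p = 0.00817, 0.00226 and 0.00668), and Ifne was lower by -1.26 (SE 0.35, adjusted p = 0.012). Genes of the interferon alpha family are near-identical in sequence, and a probe may read several of them.

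A further 17 genes belong to pathways that sense nucleic acid upstream of interferon, adaptors, kinases and regulators among them. Of these, 5 were lower and 0 higher in KO_Ctrl, and 6 were lower and 2 higher in KO_IL4. Sting1, the adaptor of cytosolic DNA sensing, averaged -1.27 ± 0.11 in KO_Ctrl and 0.05 ± 0.28 in WT_Ctrl, a difference of -1.32 (SE 0.12, adjusted p = 5.16e-08). Trex1, a DNA exonuclease, and Samhd1, which depletes nucleotides, were lower by -0.79 (SE 0.13, adjusted p = 7.80e-05) and -0.75 (SE 0.15, adjusted p = 6.05e-04). With IL-4, Sting1, Samhd1 and the kinase gene Ikbke were lower by -0.64, -0.80 and -0.74, and Tlr9 and Traf6 were higher by 0.93 and 0.48. Of 17 guanylate-binding proteins and immunity-related GTPases, which interferon gamma also induces, 10 were lower and 0 higher in KO_Ctrl. In KO_IL4 10 were lower and 3 higher. Gbp3, Gbp8 and Gbp7 were lower in KO_Ctrl by -1.56, -1.44 and -1.40 (adjusted p = 3.56e-08, 8.15e-04 and 6.52e-04), and Tgtp1, Gbp5 and Gbp10 were higher in KO_IL4 by 1.83, 0.87 and 0.79 (adjusted p = 0.0024, 0.00381 and 0.0111). Of these 17 genes 0 were called before culture by limma.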

How the data were processed

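Per probe and array, the authors' deposited value is a log2 ratio, test sample in Cy5 over reference pool in Cy3, on Agilent arrays with 2 dyes. Signals were extracted with Agilent Feature Extraction 11.0.1.1, per the submitters' processing notes. The normalization within arrays is not given in the sources used here. No further normalization or filter was applied. Signal intensities were not used, ratios hold no depth, and precision is limited by how many arrays there are. Of 39485 probes, 30625 named 1 gene by the platform annotation, 0 named several, and 8804 probes and the 56 controls were left out. Probes of a gene were averaged, which gave 21892 genes. By Entrez identifier 30331 named probes had a RefSeq entry (GRCm38.p6) and 294 kept the annotation's name.

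Linear models with moderated statistics (limma 3.58.1 in R 4.3.3) were fitted over all genes, adjusted by Benjamini-Hochberg over all genes, and 0.05 was the threshold of a call. KO_Pre vs WT_Pre used 20 arrays. For the remaining 8 comparisons 1 model took the 30 arrays numbered 6 to 10, where groups before culture have n = 5. SE are moderated ones. The pipeline was tested on simulated data.

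The 45 genes and the lists beside them were chosen with earlier results of these data known. Genes given with every array are the 12 with the largest difference in KO_Ctrl vs WT_Ctrl and at least 2 per role. Added to these are genes called against the majority or in a difference of effects, and those called in neither genotype comparison after culture. Among them Dtx3l and Ifitm3 are given as means without IL-4, and Ifi35 only as differences. From the interferon lists up to 3 called genes per direction were named, with Ifnb1, Ifnar1, Ifnar2, Stat2, Irf9 and Irf7 in any case, Dock10, and Hbb-b1 for erythroid cells. The other genes of these lists that the text gives were chosen after their values were seen.

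Equal numbers before culture had correlated residuals between genotypes (0.225 to 0.543 over 10 pairs), and the labels give the same mouse with and without IL-4. KO_Ctrl and WT_Ctrl (-0.171 to 0.169) and KO_IL4 and WT_IL4 (0.0911 to 0.299) were not treated as pairs. Alternatives were median centring, quantile normalization, tests per probe, the probe of largest SD, an SD filter, trend and robust moderation, array weights, a minimum difference of 1, other sets of arrays, the background ratio as covariate, the mouse as a replicate block, and leaving out arrays.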

Additional observations from a re-analysis of the deposited data

Results flagged for a closer look

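The change over culture differed between the genotypes for 31 genes by the test of the difference of effects (limma, adjusted over all genes), and in all of them the change was more negative in KO than in WT cells, where 4.46% of all genes were called so. Among antiviral effectors the difference of effects, KO minus WT, was -3.22 for Mx1, -3.09 for Mx2, -2.77 for Ifit1, -1.66 for Ifit2, -2.14 for Ifit3, -3.26 for Ifit1bl1, -3.20 for Cmpk2, -0.65 for Isg20, -1.44 for Samd9l and -1.01 for Slfn8. Among genes of RNA and DNA sensing and the oligoadenylate synthetases it was -1.34 for Ifih1, -1.01 for Ddx58, -1.24 for Dhx58, -2.07 for Ddx60, -1.48 for Zbp1, -1.29 for Eif2ak2, -1.85 for Oas1a, -2.01 for Oas2, -1.04 for Oas3, -1.53 for Oasl1 and -2.25 for Oasl2. Among genes of ISG15, ADP-ribose and TRIM proteins the values were -2.68 for Usp18, -1.29 for Herc6, -1.02 for Trim30a, -0.93 for Dtx3l and -1.24 for Parp14. Of the other genes, the difference was -3.31 for Rtp4, -2.43 for Ifi27l2a, -2.52 for Xaf1, -0.95 for Epsti1 and -1.15 for Helz2. 

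Single arrays stood far from the other 4 of their group in 11 of 186 groups examined, by the gap to the nearest array as a share of the range. Chance alone gives about 1 in 20. The groups had 5 arrays, except KO_Pre and WT_Pre for the median over the genes, with 10 each. The 11 flags are of genes measured in the same arrays and are not separate from each other. In WT_Ctrl the array of mouse 6 was far below the others for Ifit1 (-3.38), Ifit2 (-1.01), Slfn8 (-0.97) and Xaf1 (-1.58). In WT_IL4 it was far below for Ifit1bl1 (-4.45) and Zbp1 (-0.69). Thus 6 of the 11 came from cultures of wild-type mouse 6, whose Hbb-b1 ratios were high and Dock10 ratios the lowest of their groups. The part of red cell RNA in this was not tested. The WT_IL4 array of mouse 7 was far above for Tor3a (0.17), and the WT_Ctrl array of mouse 9 far below for Slfn5 (-0.37). In KO_Ctrl the array of mouse 8 was far above for Isg20 (-0.43) and Sp100 (0.15), and that of mouse 10 far below for Eif2ak2 (-1.91).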

How the results depend on the processing

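Of the 45 genes, those called lower in KO_Ctrl than in WT_Ctrl numbered 27 (quantile normalization) to 41 (tests per probe) in the alternatives that keep all arrays. Of the 40 called, 26 were called in every alternative, and of the 35 called in KO_IL4 vs WT_IL4, 13 were. Parp9 turned to 0.13 in KO_Ctrl vs WT_Ctrl with the probe of largest SD in place of the mean. Under quantile normalization the counts were 14 (KO_IL4 vs WT_IL4), 1 (KO_IL4 vs KO_Ctrl, median 0.056), 10 (WT_Ctrl vs WT_Pre) and 14 (difference of culture effects, median -0.97), and the median for KO_Ctrl vs KO_Pre was -1.30. That median was -1.67 with median centring and -1.92 with the background ratio as covariate. A minimum difference of 1, which removes calls by construction, gave 21 (KO_IL4 vs WT_IL4), 8 (WT_IL4 vs WT_Ctrl), 2 (KO_IL4 vs KO_Ctrl) and 7 (WT_Ctrl vs WT_Pre). Fits of the compared groups alone gave 7 for both IL-4 comparisons, with 7361 of all genes called in WT and 1168 in KO cells. KO_IL4 vs KO_Ctrl had 7 with array weights, with the background covariate, with the mouse as a replicate block, fixed or random, and without wild-type mouse 6. The difference of IL-4 effects had 3 with array weights and with the mouse as a replicate block (353 of all genes with the block), and 2 without wild-type mouse 6. Where no value or construction shows it, the cause was not tested.

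Leaving out 1 array at a time gave counts of 0 (KO_Pre vs WT_Pre), 39 to 40 (KO_Ctrl vs WT_Ctrl), 25 to 36 (KO_IL4 vs WT_IL4), 8 to 22 (WT_IL4 vs WT_Ctrl), 2 to 5 (KO_IL4 vs KO_Ctrl), 0 to 3 (difference of IL-4 effects), 11 to 21 (WT_Ctrl vs WT_Pre), 43 to 44 (KO_Ctrl vs KO_Pre) and 26 to 35 (difference of culture effects). The medians for WT_Ctrl vs WT_Pre ran from -0.56 to -0.16, those for the difference of IL-4 effects from 0.19 to 0.51, those for KO_Ctrl vs KO_Pre from -1.81 to -1.69 and those for the difference of culture effects from -1.47 to -1.11. The block of mouse numbers changed no call in KO_Pre vs WT_Pre (0 called). Over all genes, the share of higher calls was 44.9% in KO_Ctrl vs WT_Ctrl and 19.8% under quantile normalization, with 3350 and 660 genes called. In KO_IL4 vs WT_IL4 it was 46.5% and 60.2%, with 4032 and 1449 called. It moved by over 10 percentage points also in WT_IL4 vs WT_Ctrl (57.5%, and 42.9% under quantile normalization), WT_Ctrl vs WT_Pre (33.3%, and 50.5% with median centring and 54.3% under quantile normalization), KO_Ctrl vs KO_Pre (38.8%, and 50.4% under quantile normalization), the difference of IL-4 effects (51.0% and 84.0%) and that of culture effects (33.2% and 19.5%).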
